A study of Marchantia polymorpha with 12 samples.

Results

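The 81 genes described here were expressed in intact thalli of the liverwort Marchantia polymorpha. After wounding they were raised in both genotypes of the series, by factors within set limits of each other. They were chosen from 19421 genes, of which they are 0.417%, by their TPM (a level per library that is corrected for transcript length and scaled to the same total), summed over the transcripts of a gene and averaged over 3 libraries. A member had a mean of 1 TPM or more in the control thalli of both genotypes and a wounded/control ratio of 6 or more in both. Its ratio in Mperf15ko divided by that in Tak-1 lay between 0.6 and about its reciprocal, and its control level in Mperf15ko divided by that in Tak-1 lay between 0.5 and 2. The wound response in each genotype, the level of the genotypes in controls and the difference between the responses were therefore all used to choose the genes, so values of these 4 contrasts are given as a description, and nothing is read from the calls on them, which are printed beside the share of all genes called.

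RNA was sequenced from thalli grown from gemmae for 14 days, in 4 groups of 3 libraries, each library an independent replicate of 12 plants. The groups were Tak-1, a male laboratory accession, and the line labelled Mperf15ko, each taken either intact as controls or 1 h after the thallus blades had been wounded. The lesion of Mperf15ko is not described in the labels. MpERF15, the gene that the label names, is itself one of the 81 genes and had reads in all 12 libraries, so its counts do not check the label. In bulk tissue, fewer cells of a type and less RNA per cell cannot be told apart.

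Wounding a plant sets off rapid changes in transcripts, many of them of transcription factors, protein phosphatases, stress-protective proteins and enzymes that modify small molecules or cell walls. In Marchantia, as in other land plants, oxidised fatty acids (oxylipins) are among the signals that follow injury, and the liverwort perceives a relative of the precursor of jasmonate, the wound hormone of flowering plants. AP2/ERF, WRKY and bHLH proteins are families of DNA-binding regulators with known wound-responsive members in flowering plants.

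Libraries held 17.2 to 30.4 M estimated reads. The most abundant 10 genes took 10.9% of the reads of wounded Tak-1 replicate 1 and 5.50% to 8.60% in the other libraries. The photosynthesis gene MpRBCS was at means of 355 to 563 TPM. Of the male germ line markers, MpPRM was at or near 0, MpDUO1 was at means of 0.202 to 0.908 TPM, and MpGCS1 was at 2.14 TPM in control and 4.54 TPM in wounded Mperf15ko and at no more than 2.17 TPM in Tak-1. The gemma cup marker MpGCAM1 went from 0.789 to 4.49 TPM in Tak-1 and from 0.417 to 3.74 TPM in Mperf15ko, and the air chamber marker MpSYP13A to 70.7 TPM from 38 and to 81.8 TPM from 41.5, while the gemma cup marker MpKAR went from 12.3 to 9.06 TPM and from 10.9 to 6.93 TPM. The other 4 markers, of oil bodies and air chambers, had means between 0.531 and 28.1 TPM. No marker gene was one of the 81, and the part of these cell types in the members' levels was not tested. With both control means at 1 TPM or more, 12197 genes could be chosen. Of these, 164 had a ratio of 6 or more in Tak-1, 158 had one in Mperf15ko and 120 had one in both. The limits on the genotypes then removed 39 genes, 28 for the ratio of the responses and 24 for the control level, with 13 outside both limits.

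**Figure D1:**
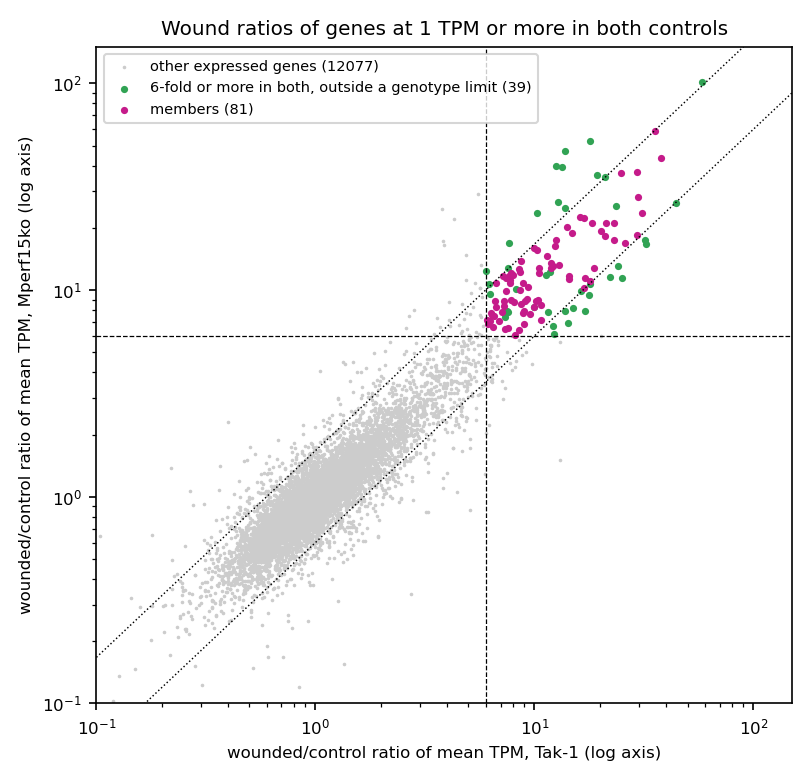
Wounded/control ratio of mean TPM in Tak-1 (horizontal, log axis) and in Mperf15ko (vertical, log axis), 1 point per gene with both control means at 1 TPM or more. Dashed lines mark a ratio of 6 and dotted lines the limits, 0.6 and about its reciprocal, on the ratio of the responses. The 81 members lie between the dotted lines at the upper right, and the 39 genes outside a genotype limit lie beyond or among them. A further 9 genes with a ratio under 0.1 lie outside the axes.

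Control means of the 81 genes in Tak-1 ran from 1.10 to 31.6 TPM with a median of 5.71, and wounded means from 9.51 to 627 TPM with a median of 59.8. In Mperf15ko the control means ran from 1.15 to 42.7 TPM (median 5.26) and the wounded means from 10.5 to 787 TPM (median 74.2). Before wounding, 38 of the genes were under 5 TPM in Tak-1 and 9 were at 20 TPM or more. After wounding, 27 were at 100 TPM or more. Together their Tak-1 means summed to 632 TPM in control thalli and 7442 TPM in wounded thalli, and their Mperf15ko means to 715 and 8904 TPM.

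The median ratio was 9.50 in Tak-1 and 11.3 in Mperf15ko, where all genes with both control means at 1 TPM or more had medians of 0.955 and 0.966. A ratio of 10 or more in both genotypes was reached by 34 genes and one of 20 or more in both by 8. In each genotype the wounded libraries all lay above the control libraries for all 81 genes, as the choice by ratio nearly ensures. The same held for 19.5% of the 12197 genes that could be chosen. In edgeR's quasi-likelihood test all 81 passed as higher after wounding in each genotype, as did 23.4% of tested genes in Tak-1 and 23.5% in Mperf15ko, and 19% passed in both. These counts follow from the choice and nothing is read from them.

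Gene names were available for few of the genes. A symbol was given for 12 of the 81, or 14.8%, and for 15.9% of all genes. The 12 hold 3 transcription factors, a protein phosphatase, 3 late embryogenesis abundant (LEA) proteins and 5 enzymes. The other 69 are called by their identifiers, without a role.

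Among the transcription factors, MpBHLH2 (Mp2g00890), a basic helix-loop-helix protein, was the most abundant after wounding. Its Tak-1 level was 4.71, 3.81 and 4.58 TPM in control libraries 1 to 3 and 90.5, 96.5 and 116 TPM in wounded ones. The Mperf15ko libraries had 4.15, 8.11 and 4.18 TPM as controls and 86.7, 95.6 and 106 TPM after wounding. Wounded libraries of the genotypes overlapped, and control replicate 2 of Mperf15ko was the highest control. Here and below, overlap between the genotypes describes single genes, and no share over all genes is given for it.

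MpERF15 (Mp7g09350), the AP2/ERF factor, was at 1.5, 1.83 and 1.64 TPM in control Tak-1 and at 20.1, 34.7 and 34.6 TPM in wounded Tak-1. In the line labelled Mperf15ko it was at 1.94, 3.4 and 1.68 TPM in control libraries and at 17.1, 20.2 and 40.6 TPM in wounded ones. Both genotypes thus had a wounded library well below another, and the groups of the genotypes overlapped before and after wounding. Its ratios of 18.0 and 11.1 put it just inside the lower limit on the ratio of the responses, at 0.617.

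MpWRKY10 (Mp7g06550), a WRKY factor, was less abundant. Its level was 2.45, 1.89 and 2.41 TPM in control Tak-1 and 17.4, 19.2 and 23.4 TPM in wounded Tak-1. Levels in Mperf15ko were 2.16, 3.84 and 2.84 TPM in controls and 26.4, 21.3 and 20.7 TPM after wounding. The wounded libraries of the genotypes overlapped.

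MpPP2C_F1 (Mp3g18710), of the PP2C family of serine/threonine protein phosphatases, was the most abundant gene with a symbol in wounded Tak-1. It was at 25.8, 23.7 and 20.6 TPM in control Tak-1 and 212, 262 and 278 TPM in wounded Tak-1. Mperf15ko had 33.6, 48.7 and 45.9 TPM in controls and 287, 317 and 311 TPM in wounded thalli. All Mperf15ko libraries lay above all Tak-1 libraries of the same treatment, and its control level, 1.83 times that of Tak-1, was the largest among the 81. Its ratio was 10.7 in Tak-1 and 7.14 in Mperf15ko.

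LEA proteins often accumulate in drying tissues, and dehydrins are a class of them. The dehydrin MpDHN3 (Mp6g15610) was at 5.45, 5.22 and 6.46 TPM in control Tak-1 and 79.0, 97.1 and 116 TPM after wounding. In Mperf15ko it was at 5.85, 12.2 and 7.10 TPM and, after wounding, 73.1, 142 and 72.4 TPM. Replicate 2 of that line was the highest library in both states. MpLEA-like4 (Mp1g23200) had means of 12.1 and 88.6 TPM in Tak-1 and 17.9 and 116 TPM in Mperf15ko. MpLEA-like59 (Mp8g07630) had means of 2.59 and 26.4 TPM in Tak-1 and 3.16 and 28.1 TPM in Mperf15ko, where its control libraries spread from 0.976 to 5.05 TPM.

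Of the enzymes, the cytochrome P450 MpCYP815A1 (Mp1g15990) had the largest ratios. It was at 9.24, 6.88 and 9.17 TPM in control Tak-1 and 194, 223 and 209 TPM in wounded Tak-1. Mperf15ko libraries were at 7.69, 6.41 and 5.13 TPM in controls and 232, 217 and 261 TPM after wounding. The libraries of the genotypes overlapped in both states, with ratios of 24.8 and 37.0. MpCYP94L1 (Mp5g04140) belongs to the CYP94 family, whose members oxidise the hormone jasmonoyl-isoleucine in Arabidopsis. It was the least abundant of the 81 genes in wounded Tak-1, with means of 1.52 and 9.51 TPM in Tak-1 and 1.75 and 12.5 TPM in Mperf15ko.

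Mp4CL1 (Mp1g27780) encodes a ligase that activates coumaric acid for phenylpropanoid synthesis. Its level was 10.4, 9.19 and 10.5 TPM in control Tak-1 and 86.9, 91.2 and 95.2 TPM in wounded Tak-1. That of Mperf15ko was 8.88, 12.4 and 9.37 TPM in controls and 82.1, 87.0 and 102 TPM in wounded thalli. Its ratios were 9.09 and 8.85, and the libraries of the genotypes overlapped in both states.

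MpGST30 (Mp2g22410), of the glutathione transferase family, which conjugates glutathione to reactive compounds, was at means of 22.1 and 146 TPM in Tak-1 and 17 and 150 TPM in Mperf15ko. Its wounded libraries spanned 143 to 149 TPM in Tak-1 and 110 to 183 TPM in Mperf15ko. MpGH16.7 (Mp2g17810), of a glycoside hydrolase family that includes enzymes acting on cell wall polysaccharides, was at 13.0, 14.2 and 18.0 TPM in control Tak-1 and 103, 122 and 108 TPM after wounding. In Mperf15ko it was at 7.87, 17.3 and 13.8 TPM and, after wounding, 139, 141 and 164 TPM. Its wounded libraries did not overlap between the genotypes, and its controls did.

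**Figure D2:**
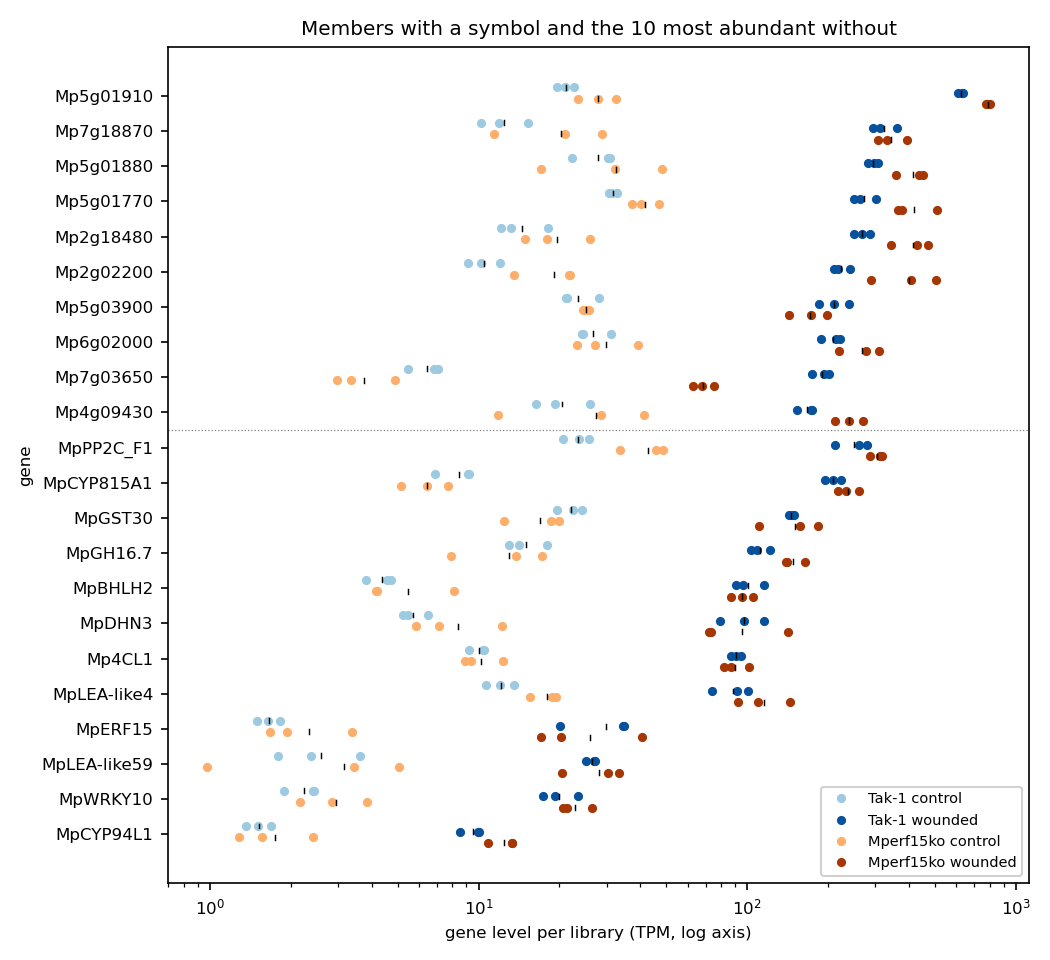
Level of 22 members in each library (TPM, log axis), with the 12 that have a symbol below the dotted line and the 10 most abundant without one above it. Points are libraries, coloured by group, and short black bars are means of 3. In every row the wounded libraries lie to the right of all control libraries, from MpCYP94L1 at 8.52 to 13.4 TPM up to Mp5g01910 at 610 to 803 TPM.

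Without a symbol, Mp5g01910 was the most abundant member in wounded thalli. It was at 21.0, 22.7 and 19.6 TPM in control Tak-1 and 610, 632 and 638 TPM in wounded Tak-1. In Mperf15ko it was at 23.4, 32.5 and 27.8 TPM in controls and 784, 773 and 803 TPM in wounded libraries. All Mperf15ko libraries lay above all Tak-1 libraries of the same treatment, and the ratios were 29.7 and 28.2.

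Mp7g18870 came next in wounded Tak-1, with 311, 295 and 361 TPM against 11.9, 10.2 and 15.2 TPM in its controls. In Mperf15ko it had 308, 393 and 332 TPM against 11.4, 28.7 and 21.0 TPM, so wounded libraries overlapped between the genotypes. Mp5g01880, Mp5g01770, Mp2g18480 and Mp2g02200 followed, with wounded Tak-1 means of 223 to 294 TPM and wounded Mperf15ko means of 401 to 416 TPM. In these 4 genes all wounded Mperf15ko libraries were above all wounded Tak-1 libraries, which is a description without a share over all genes. The next, Mp5g03900, went the other way. Its wounded libraries were at 186, 239 and 210 TPM in Tak-1 (mean 211). In Mperf15ko they were at 144, 173 and 199 TPM (mean 172), so they overlapped between the genotypes.

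Mp1g07900 and Mp3g06600 had the largest ratios, both from low control levels. Mp1g07900 was at 1.54, 0.481 and 3.34 TPM in control Tak-1 and 67.9, 64.6 and 69.6 TPM in wounded Tak-1, and at 0.724, 2.23 and 3.02 TPM and 83.4, 99.5 and 77.0 TPM in Mperf15ko. Its ratio in Tak-1 was 37.8, and 66.8 without control replicate 3. Mp3g06600 was at 1.29, 1.61 and 2.00 TPM in control Tak-1 and 51.4, 51.8 and 70.1 TPM after wounding. In Mperf15ko it was at 0.971, 2.01 and 0.821 TPM and 40.5, 93.2 and 89.2 TPM. Its ratio in Mperf15ko was 58.7, and 91.9 with the median of the libraries in place of the mean.

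Besides these, the genes with a ratio of 20 or more in both genotypes were Mp5g01910, MpCYP815A1, Mp2g02200, Mp2g16410, Mp5g08770 and Mp7g02470. Mp2g16410 was at 2.66, 3.62 and 5.08 TPM in control Tak-1 and 116, 107 and 110 TPM in wounded Tak-1, with ratios of 29.3 and 37.1. Mp7g02470 was at 3.38, 13.7 and 4.46 TPM in the control libraries of Mperf15ko. Its ratio there was 23.6 with all libraries, and 43.2 without the high control replicate 2.

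Within the limits that were set, more members were higher than lower in Mperf15ko. Control means were higher in Mperf15ko for 50 and lower for 31, and wounded means were higher for 57 and lower for 24. No share over all genes is given for these counts. The rule limited the control level and the ratio of the responses, and the members deviated together from library to library (below). The counts are therefore a description and no test. The Mperf15ko control mean was a median of 1.06 times that of Tak-1, against 0.999 for genes with both control means at 1 TPM or more. The Mperf15ko wounded mean was a median of 1.14 times that of Tak-1, where genes with both control means at 1 TPM or more had a median of 1.01. At the extremes, Mp7g03650 was at 175, 202 and 192 TPM in wounded Tak-1 and 75.4, 62.7 and 67.9 TPM in wounded Mperf15ko, a ratio of 0.362. Mp1g16530 was at 30.1, 31.7 and 36.3 TPM and 62.9, 77.8 and 85.5 TPM, a ratio of 2.30. Neither gene's wounded libraries overlapped between the genotypes.

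By edgeR, 5 of the 81 were higher and 7 lower in control Mperf15ko than in control Tak-1, against 13.6% and 14.6% of all tested genes. For the difference between the wound responses, edgeR called 0 members, against 0.4% of tested genes with a larger and 0.667% with a smaller response in Mperf15ko. At an unadjusted p under 0.05 there were 13 of the 81, and 12.03% of all tested genes. DESeq2 called 5 with a larger and 2 with a smaller response in Mperf15ko, and 3.29% of all genes in either direction. The limits on the genotype ratios had already removed the genes that differed most, so these counts do not show that the genotypes respond alike.

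At most limits, genes just inside and just outside differed little in the value that was limited. The gap was wider at the upper limit on the control level. For the ratio of the responses, Mp7g02340 (0.602) and MpERF15 (0.617) were the closest inside the lower limit, and Mp1g07890 (0.597) and Mp5g17870 (0.580) the closest outside it. At the upper limit Mp3g06600 (1.66) and Mp8g05150 (1.63) were inside and Mp2g20590 and Mp1g22410 (both 1.69) outside. By the smaller wounded/control ratio, Mp4g03340 (6.06) and Mp4g09410 (6.10) were inside and Mp6g15700 (5.97) and Mp7g10210 (5.96) outside. By the lower control mean, Mp4g20700 (1.10 TPM) and Mp1g27990 (1.13 TPM) were inside and Mp1g22310 (0.983 TPM) and Mp1g22130 (0.942 TPM) outside. For the control level of Mperf15ko over Tak-1, Mp4g08050 (0.503) and Mp1g17090 (0.562) were inside the lower limit, and Mp7g17120 (0.473) and Mp1g24800 (0.459) outside. At its upper limit MpPP2C_F1 (1.83) and Mp2g02200 (1.82) were inside, and Mp7g14050 (2.24) and Mp2g05910 (2.80) outside.

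The spread between libraries of a group was not used by the rule, which took means only. Control libraries of Mperf15ko varied more for these genes than for others. The median coefficient of variation of the 81 genes there was 23.8%, against 10.05% for other genes of the same range of level. In wounded Mperf15ko it was 16.7% against 8.10%. In Tak-1 the medians were 14.1% against 13.6% in controls and 8.60% against 6.71% after wounding. The control comparison in Tak-1 depended on the unit, with 16.6% against 11.5% by CPM. Among wounded Tak-1 libraries the most variable member was Mp4g03340, at 14.5, 30.1 and 27.9 TPM, a coefficient of variation of 34.8%.

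The members deviated together from library to library. In control replicate 2 of Mperf15ko, 68 of the 81 were above their group mean, with a median deviation of 0.21 on the log2 scale, and in 54 of the 81 that library was the highest of its group. In control replicate 1 of the same line 65 were below the mean, with a median deviation of -0.24. Other genes with both control means at 1 TPM or more had median deviations of 0.010 and 0.012 in these libraries. Mp4g09430, at 11.8, 41.3 and 28.6 TPM in the control libraries of Mperf15ko, is a wide example, with a coefficient of variation of 54.3%. Its replicate 3 was above its group mean of 27.3 TPM, where 51 of the 81 genes were below theirs.

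The same deviations were present outside the 81 genes. The 39 genes that were raised in both genotypes but lay outside a genotype limit had medians of -0.25 in control replicate 1 of Mperf15ko and 0.21 in replicate 2. The 256 expressed genes that were at or under 0.5 of their control level after wounding in both genotypes had medians of 0.065 and -0.051 in these libraries. Among wounded libraries, replicate 1 had median deviations of -0.11 in Tak-1 and -0.16 in Mperf15ko for the 81 genes, and of -0.061 and -0.035 for the other genes. The labels give no batch, date or handling that differs between these libraries, and the source of the deviations was not tested.

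**Figure D3:**
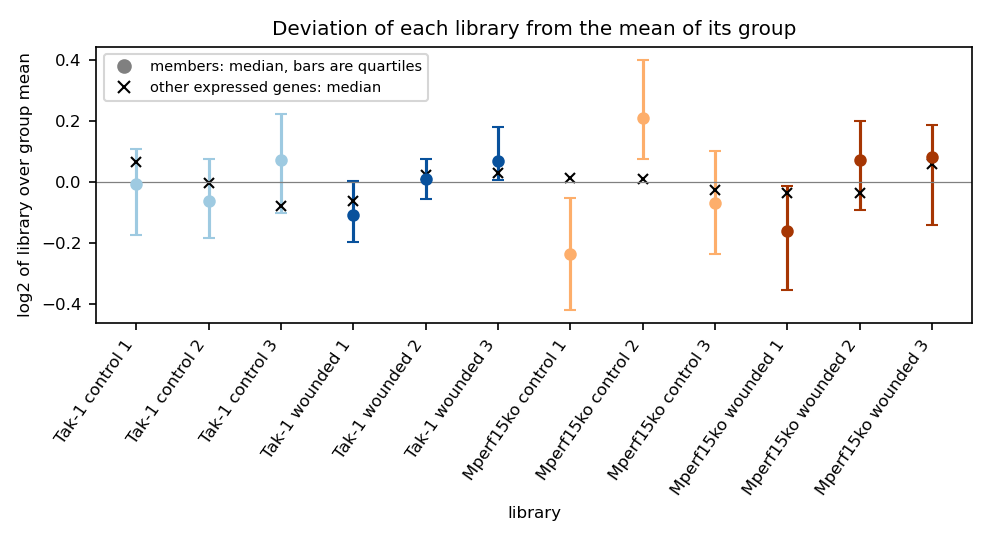
Deviation of each library from the mean of its group (log2), as the median over the 81 members (points, with bars from the lower to the upper quartile) and over the other genes with both control means at 1 TPM or more (crosses). Control replicates 1 and 2 of Mperf15ko lie at -0.24 and 0.21 for the members and near 0 for the other genes.

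These libraries moved the ratios. The median ratio in Mperf15ko was 11.3 with all control libraries, 12.2 without replicate 2 and 10.2 without replicate 1. With any 1 of the 12 libraries left out, 78 to 81 of the genes still had a ratio of 6 or more in the genotype concerned. The choice by this ratio nearly ensures these counts. When the genes were chosen anew on 2 replicate numbers and read in the libraries of the remaining one, 59 of 76, 63 of 76 and 68 of 84 chosen genes had a ratio of 6 or more in both genotypes in replicates 1, 2 and 3. A ratio of 2 or more in both was seen for 75, 76 and 84 of them. The whole rule, with its limits on the genotypes, was met in the remaining libraries by 40, 38 and 41. Of the chosen genes 65, 64 and 71 were among the 81, and no share over all genes is given. These counts therefore describe the rule and are no test of the 81 genes.

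Which transcript of a gene was used is a measure that the rule did not take, since TPM was summed over transcripts. Of the 81 genes, 12 had more than 1 transcript, or 14.8% against 15.6% of all genes and 19.8% of genes with both control means at 1 TPM or more. In edgeR's test of transcript use 0 of the 12 changed after wounding in either genotype at an adjusted p under 0.05, against 1.24% of 2347 tested genes in Tak-1 and 1.75% in Mperf15ko. At an unadjusted p under 0.05 there were 4 in Tak-1 and 2 in Mperf15ko, and 11.8% and 15.9% of all tested genes. limma's diffSplice called 0 and 1 of the 12, and 1.53% and 1.36% of all tested genes. On simulated data edgeR's test recovered 52% of 4-fold changes in 1 transcript in Tak-1 and 44% in Mperf15ko, so smaller shifts would often be missed. In the same simulations it called 7 and 20 unchanged genes beside 50 changed genes at each of 1.5-, 2-, 4- and 8-fold. The adjusted threshold depends on how many genes change, which is not known for the data. Neither the recovery nor these counts can therefore be set directly against the 29 and 41 genes called in the data. The changed genes were drawn only from those whose second transcript was above a minimum level, and that transcript was raised. Recovery for scarcer transcripts, which some members have, was not tested.

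MpBHLH2 was nearest to the threshold in Mperf15ko and next to Mp6g02000 in Tak-1. The more abundant of its transcripts held 87.8%, 53.6% and 66.8% of the gene's TPM in control Tak-1 and 88.1%, 93.1% and 92.3% in wounded Tak-1. In Mperf15ko it held 55.2%, 69.1% and 60.8% in controls and 91.1%, 90.4% and 88.5% in wounded libraries. The groups did not overlap in either genotype, but in Tak-1 the lowest wounded library (88.1%) was barely above the highest control (87.8%). No share over all tested genes is given for this. The mean shares were 69.4% ± 17.2 and 91.2% ± 2.68 in Tak-1 and 61.7% ± 7.03 and 90.0% ± 1.34 in Mperf15ko (SD, n = 3). The edgeR adjusted p was 0.162 in Tak-1 and 0.077 in Mperf15ko. Over 17 alternatives it ranged from 0.046 to 0.36 in Tak-1 and from 0.015 to 0.18 in Mperf15ko. It passed in Tak-1 without Tak-1 control replicate 1 and without Mperf15ko control replicate 2, and in Mperf15ko without the latter and with limma.

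Mp6g02000 had an unadjusted p under 0.05 in Tak-1 alone, where it was the nearest to the threshold. Its first transcript held 65.4%, 37.1% and 29.1% in control Tak-1 and 54.9%, 85.3% and 80.3% after wounding, overlapping ranges (edgeR adjusted p = 0.158, 0.046 to 0.40 over 17 alternatives, passing only without wounded Tak-1 replicate 1). In Mperf15ko it held means of 29.3% and 39.7% (adjusted p = 0.81), and the difference between the genotypes in this shift was not tested. The most abundant member, Mp5g01910, drew 76.5% ± 4.89 of its control Tak-1 level and 78.9% ± 3.95 of its wounded level from its second transcript (SD, n = 3). Its first transcript had means of 4.98 and 132 TPM in Tak-1 and 3.45 and 92.4 TPM in Mperf15ko. Reads that fit more than 1 transcript are divided by estimation, which adds error to these shares.

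**Figure D4:**
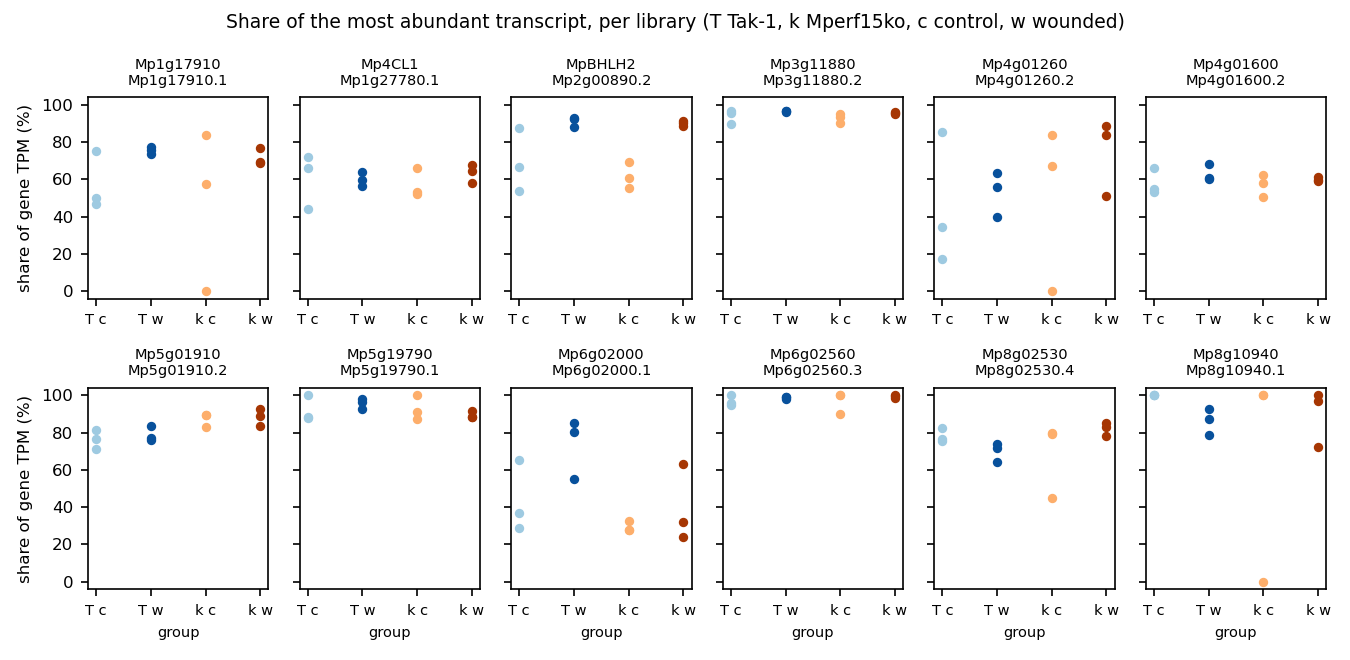
Share of the gene's TPM (%) held by the most abundant transcript of each of the 12 members with more than 1 transcript, 1 point per library, with the groups along the horizontal axis in the order Tak-1 control and wounded, then Mperf15ko control and wounded. For MpBHLH2 the wounded libraries lie at 88.1% to 93.1% and the controls at 53.6% to 87.8%. In Mp1g17910, Mp4g01260 and Mp8g10940 single control libraries of Mperf15ko lie at 0.

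Position in the genome was a further property not used by the rule. Members lay on all 8 autosomes, 7 to 12 on each, and made up 0.298% to 0.557% of the genes there. None was among the 154 genes of the V chromosome, the male sex chromosome. In the order of gene identifiers, 6 pairs of members were direct neighbours. The pairs were Mp1g16520 with Mp1g16530, Mp2g02200 with Mp2g02210, Mp3g24400 with Mp3g24410, Mp4g03340 with Mp4g03350, Mp4g21040 with Mp4g21050, and Mp7g02460 with Mp7g02470. The 12 genes of these pairs are 14.8% of the members, while 0.829% of all genes lie next to a member.

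Neighbours within a pair differed in level. In wounded Tak-1, Mp2g02200 had 217, 211 and 241 TPM and Mp2g02210 had 26.1, 25.2 and 25.4 TPM. Their ratios were 21.3 and 10.4 in Tak-1 and 21.0 and 8.93 in Mperf15ko. Mp7g02460 and Mp7g02470 reached similar wounded Tak-1 means of 130 and 138 TPM from control means of 17.8 and 4.45 TPM. Around Mp1g16520 and Mp1g16530 the 3 genes on either side had ratios of 0.852 to 1.21 in both genotypes. The surroundings of some other pairs held raised genes among unraised ones. Mp4g03360, next to Mp4g03350, had means of 0 and 5.75 TPM in Tak-1 and 0.111 and 9.84 TPM in Mperf15ko. Mp2g02230, near Mp2g02210, had ratios of 3.14 and 2.63.

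Genes next to members were also raised more often than other genes, mostly from levels too low to be chosen. Of 149 direct neighbours that were not members, 12 had a ratio of 6 or more in both genotypes and wounded means of 1 TPM or more, or 8.05%. Over all genes but the members the share was 1.15%, and it was 1.25% among genes 2 places away and 0.625% among genes 3 places away. A ratio of 2 or more in both was seen for 18.8% of the direct neighbours, against 5.55% over all genes but the members. Of the 12 raised neighbours, 11 were under 1 TPM in a control group.

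Mp4g09420 lies between the members Mp4g09410 and Mp4g09430. Its means were 0.336 and 16.4 TPM in Tak-1 and 0.188 and 15.8 TPM in Mperf15ko. Next to MpERF15, Mp7g09360 had means of 0.0295 and 3.03 TPM in Tak-1 and 0.0704 and 4.72 TPM in Mperf15ko. MpSAUR8 (Mp1g27980), of a family of small auxin-induced genes, lies next to Mp1g27990 and had means of 0.742 and 13.7 TPM in Tak-1 and 0.381 and 9.35 TPM in Mperf15ko. The single raised neighbour with both control means at 1 TPM or more was Mp1g07890, next to Mp1g07900, with 3.52 and 63.2 TPM in Tak-1 and 5.45 and 58.3 TPM in Mperf15ko.

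Lying next to a raised gene was not particular to the 81. Counting members and other genes alike, 29.6% of the members lay next to a gene with a ratio of 6 or more in both genotypes. The share was 23.1% of the 39 genes outside the genotype limits and 36.6% of 183 genes that were raised as much from under 1 TPM in a control, against 2.99% of all genes. Reads were whole numbers, and so not divided between similar transcripts, for 7 of the 12 paired members and 11 of the 12 raised neighbours. Reads that were not whole were present for 40.3% of all genes and 34.6% of the members, and nothing is read from these counts. How reads from overlapping neighbouring genes were assigned is not given in the sources used here, and its part in these values was not tested.

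**Figure D5:**
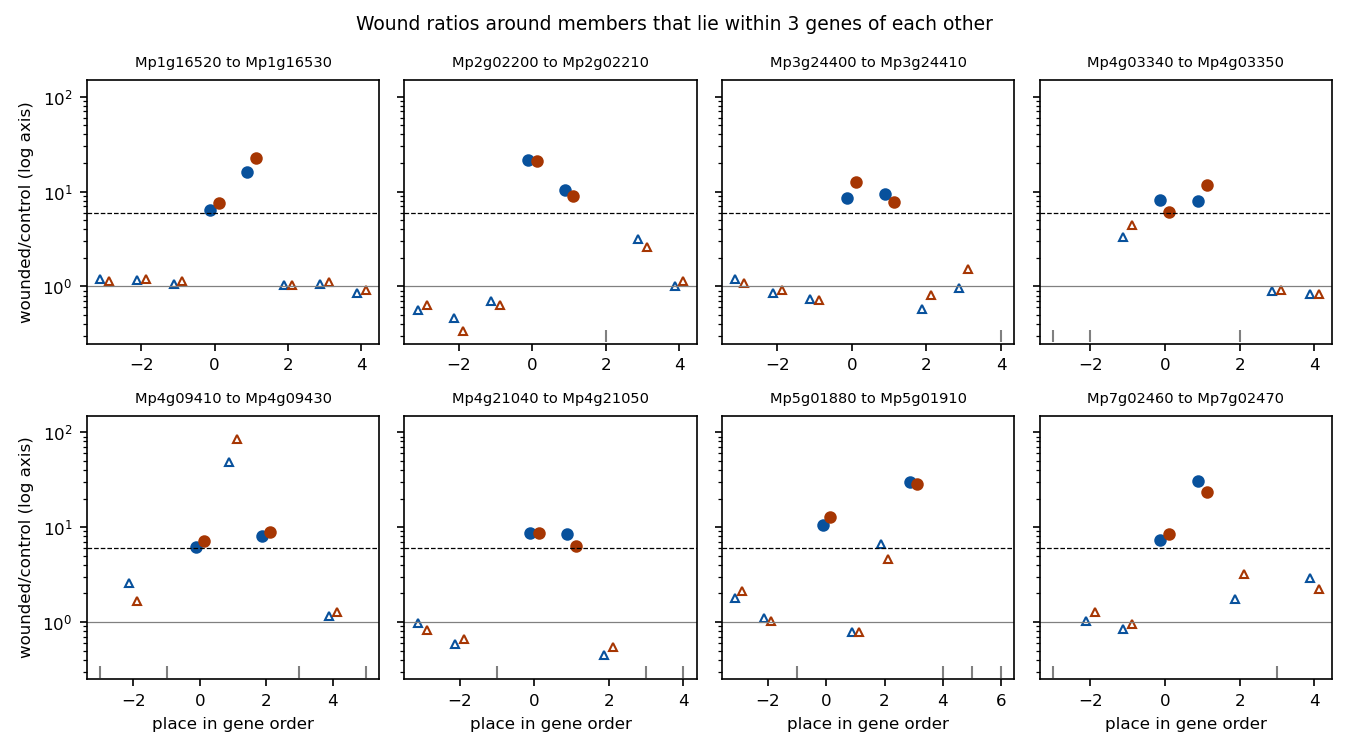
Wounded/control ratio of mean TPM (log axis) by place in the order of gene identifiers, counted from the first member, around the 8 sets of members that lie within 3 genes of each other. Filled circles are members and open triangles other genes, blue for Tak-1 and brown for Mperf15ko, and grey ticks mark genes with a wounded mean under 1 TPM or a control mean of 0 in a genotype. The dashed line marks a ratio of 6 and the solid line a ratio of 1. Most neighbours of the pairs that are drawn as triangles lie near 1, and Mp4g09420 lies above the members on either side of it. Mp4g03360, next to Mp4g03350, is a grey tick because its Tak-1 control mean was 0, although its wounded means were 5.75 and 9.84 TPM.

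The named members belong to families of which they are a small part. Counts below are of genes called by edgeR over all tested genes, whose median log2 fold change was -0.045 in Tak-1 and -0.015 in Mperf15ko. All 13 tested WRKY genes were higher in Tak-1 (median 1.51) and 11 of 13 in Mperf15ko (median 1.24). Besides MpWRKY10, a ratio of 6 or more in both genotypes, with wounded means of 1 TPM or more, was reached by MpWRKY14, which was outside the limits with a ratio of responses of 0.497, and by MpWRKY7, with a control mean of 0.635 TPM in Tak-1. MpWRKY6 had ratios of 6.13 and 7.33, with a wounded mean of 0.759 TPM in Mperf15ko. Of 17 AP2/ERF genes, 8 were higher and 2 lower in Tak-1, and 8 higher and 3 lower in Mperf15ko. By the same limits, MpERF21 and MpERF9 were the other AP2/ERF genes raised as much, from 0.133 and 0.0811 TPM in control Tak-1. The control level of Mperf15ko over Tak-1 was 0.43 for 1 of these 2 genes and 13.0 for the other. Only 1 of them was under 1 TPM in control Mperf15ko.

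Of the family lists used, that of LEA genes held the most genes raised this far. Of 58 tested, 43 were higher and 5 lower in Tak-1 (median 2.12), and 38 higher and 6 lower in Mperf15ko (median 2.74). The order of these medians turned with limma on TPM, at 1.92 and 1.40, and without a filter, at 2.08 and 2.05. A ratio of 6 or more in both genotypes, with wounded means of 1 TPM or more, was reached by 23, of which 3 were members. The control level of Mperf15ko over Tak-1 was 1.22 to 1.48 for these 3. For the other 20 it was between 0 and 0.554, with 16 of them under 1 TPM in control Mperf15ko, for example MpLEA-like19 with 3.88 TPM in control Tak-1 and 0.456 TPM in control Mperf15ko. Since the rule limits this control ratio, the split describes the choice and is no test.

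In the PP2C family 11 of 18 tested genes were higher and 2 lower in Tak-1, and 9 were higher and 3 lower in Mperf15ko. With upper quartile scaling these counts were 8 and 4 in Tak-1 and 5 and 4 in Mperf15ko. MpPP2C_F3, the other PP2C gene raised 6-fold or more in both by the same limits, was outside the limits with a control level in Mperf15ko 2.38 times that in Tak-1. Of 16 genes at the entry to phenylpropanoids, 8 were higher and 4 lower in Tak-1 and 7 and 4 in Mperf15ko, and MpPAL7 also met these limits, with a control ratio of 0.182.

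Other families of members moved both ways. Of 37 bHLH genes, 11 were higher and 12 lower in Tak-1, and 11 higher and 13 lower in Mperf15ko. Cytochromes P450 other than CYP74 had 21 higher and 30 lower of 91 in Tak-1, and 24 and 25 in Mperf15ko. Of 33 glutathione transferases, 11 were higher and 7 lower in Tak-1 and 14 and 4 in Mperf15ko, where upper quartile scaling gave 14 and 13. The medians of the bHLH and glutathione transferase lists were 0.0033 and 0.090 in Tak-1 and 0.098 and 0.024 in Mperf15ko, and were below 0 with upper quartile scaling, which gave -0.13 and -0.042 in Tak-1 and -0.018 and -0.095 in Mperf15ko.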

How the data were processed

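Each deposited file was a Salmon table per library, giving per transcript a length, a TPM value and an estimated count of reads, per the file headers. CASAVA and Salmon 0.7.2 are listed in the submitters' processing notes, while for build, annotation and strand setting the sources used here give nothing. The deposited TPM were scaled by the authors to the same total in each library. Here TPM were summed per gene and averaged over 3 libraries, and deposited estimated counts were summed per gene and rounded. edgeR 4.0.16 (TMM, filterByExpr, glmQLFit robust, glmQLFTest; R 4.3.3) was fitted on all 12 libraries as 4 groups over 14246 genes, with Benjamini-Hochberg adjustment and a threshold of 0.05. Transcript use was tested with diffSpliceDGE over 5888 transcripts of 2347 genes. The common biological coefficient of variation was 0.126. Alternatives used DESeq2 1.42.0, limma 3.58.1 (on log2 of TPM plus 0.5), other scalings and filters, a replicate block and leaving out each library.

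The fits were tested on simulated counts with 50 changed genes per fold. In fits over the 14246 genes, 68%, 90%, 100% and 100% of genes changed 1.5-, 2-, 4- and 8-fold were recovered after wounding of Tak-1. After wounding of Mperf15ko it was 74%, 88%, 100% and 100%. The changed genes were drawn only from those above a minimum mean level, so recovery of lower genes was not tested.

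Names and gene order came from the table of assembly MpTak2_v7.1, which matched 89.5% of identifiers and 79 of the 81 members. Identifier order followed that table's order in 98.5% of 17369 consecutive pairs. Named members are the most abundant, those with the largest ratios, up to 4 per family list, those beside a limit, those nearest the threshold for transcript use, the most variable and neighbouring ones. Family lists were filled from symbols. The members and lists were chosen with earlier results of these data known. Deviations of libraries used log2 of TPM plus 0.1. Reads within 0.001 of a whole number were called whole, as they were in all libraries for 53 members. In control libraries the lowest member had 6 estimated reads, and 7 members had under 20 in at least 1, so their ratios are the least precise. Counting neighbours as raised from wounded means of 1 TPM or more was chosen after seeing the data.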

Additional observations from a re-analysis of the deposited data

How the results depend on the processing

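The number of members, 81, was 85 with CPM in place of TPM (76 shared), 76 with medians (69 shared) and 82 with geometric means (77 shared). It was 176 and 49 with ratio limits of 4 and 8, 39 with control means of 5 or more, 120 without genotype limits, and 66 to 88 with a library left out, lowest without Mperf15ko control replicate 1, where 19 members were lost. Counts of tested genes called, with a library left out, ran from 5553 to 6516 (6582 with all) for the Tak-1 wound response, 5317 to 6384 (6210) for Mperf15ko, 2565 to 4110 (4010) for the genotypes in controls, 61 to 324 (152) for the difference between responses, and for transcript use 16 to 34 (29) in Tak-1 and 33 to 96 (41) in Mperf15ko. Members called for transcript use then numbered 0 to 1 in each genotype, and 1 with limma in Mperf15ko. DESeq2 called 468 genes for the difference. Upper quartile scaling lowered the median log2 fold change by 0.13 in Tak-1 and 0.12 in Mperf15ko, and higher genes made up 36.2% of calls against 50.7% in Tak-1 and 39.3% against 53.8% in Mperf15ko. The cause was not tested.

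No pairing by replicate number was seen in correlations of deviations, which were -0.31 to 0.22 between same-numbered libraries and -0.31 to 0.36 between others. Deviations from means of 3 libraries cannot settle whether samples were paired. A replicate block gave 6224, 5920, 3619 and 130 calls in the 4 gene contrasts and 21 and 29 for transcript use. Of 784 ratios of named genes recomputed, 109 moved by more than the replicate spread, 0 reversed and 4 moved by over 1.5 times, those of Mp1g07900, Mp3g06600 and Mp7g02470. The lowest was 4.08. Spread between libraries with CPM in place of TPM had medians of 16.6%, 7.93%, 23.4% and 16.96% in Tak-1 control and wounded and Mperf15ko control and wounded thalli, against 11.5%, 6.24%, 9.85% and 7.78% for other genes of the same level. A window of 3 genes gave 16 members near another. Promoter motifs were not run.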
